A study of Drosophila melanogaster with 12 samples.

Results

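The wing imaginal discs of *Drosophila melanogaster* larvae were compared after culture with 2000 nM 20-hydroxyecdysone (20E) and after culture with no added hormone (0 nM). 20E is the hormone, made from ecdysone, that drives insect moulting and metamorphosis. All discs came from w1118 larvae, a white-eyed laboratory strain that the labels give as wild type, were taken 24 h into the third instar and were held for 2.5 h at 25°C in Dye medium. The 3 libraries labelled 2000 nM and the 3 labelled 0 nM are described here, out of 12 in a series that also holds 3 libraries each at 20 and 200 nM. The comparison asks which RNAs stand higher or lower at the highest hormone level used. Whether the replicates came from different cultures or larvae is not stated in the labels. The p-values therefore reflect the spread among libraries alone, which may be technical.

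20E acts through a pair of nuclear receptors, EcR and Usp, which binds DNA and switches target genes on or off according to whether hormone is bound. In the classical cascade the receptor first induces a small set of early genes, many of them transcription factors, and these act on later genes. In the wing disc the hormone is needed for growth and patterning during the last instar, and its peak at the end of that instar starts the eversion of the disc into a wing.

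An entry was included if its normalised count (reads divided by a size factor for each library) was at least 10 in at least 3 of these 6 libraries. This held for 8190 of the 12216 entries in the table, made up of 8047 genes and 143 transposable element insertions. Cyp4c3, Sodh-2 and alpha-Est9 lay just inside this limit, each with a third-highest value of 10.1, and CG9804, Cpr78Cc and CG16719 lay just outside it at 9.76. Of the 4026 entries left out, 701 reached 10 in 1 or 2 of the 6 libraries and 11 were at 0 in all 6. The reads counted in genes came to 25865047, 9908492 and 20682453 for the 2000 nM libraries, against 11490448, 14369671 and 24596727 for the 0 nM libraries. A single read was therefore worth 0.596, 1.58 and 0.751 normalised counts in the 2000 nM libraries, against 1.31, 1.07 and 0.632 in the 0 nM libraries.

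At 2000 nM, 1292 entries (15.8%) rose and 1315 (16.1%) fell against 0 nM, 2607 (31.8%) in all. Here and below, "rose" and "fell" mean past an adjusted p of 0.05 in limma's two-sided moderated test, with Benjamini-Hochberg adjustment over all 8190 entries. Values listed for single libraries are normalised counts in the order of replicates 1, 2 and 3. Differences are log2 fold changes of 2000 nM over 0 nM, computed after adding 1 to each value and given with their standard errors (3 libraries each). The added 1 makes the change of genes with low counts look smaller than it was. The 3 values of one dose all lay above the 3 of the other in 1699 entries (20.7%) with 2000 nM higher and in 1754 (21.4%) with 2000 nM lower. In such bulk samples fewer cells of a type and less RNA per cell cannot be told apart.

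The numbers of genes that rose and fell were nearly equal, but the sizes of the changes were not. By at least 2-fold, 428 rose and 259 fell, and by at least 16-fold 39 rose and 7 fell. Over the called genes the median change was 0.62 log2 among those that rose and -0.48 among those that fell, against -0.01 over all tested entries. The genes that rose held 18.9%, 17.4% and 18.4% of the normalised counts in the 2000 nM libraries, against 10.02% to 11.1% in the 0 nM libraries. Those that fell held 11.8%, 11.3% and 11.6% in the 2000 nM libraries, against 16.8% to 17.4% in the 0 nM libraries. When the entries were divided by mean level into 5 groups of 1638, then in the lowest group 14.7% rose and 8.43% fell with a median standard error of 0.353 log2, while in the highest group 18.4% rose and 18.4% fell with a median standard error of 0.082. A call in a gene with few counts therefore needed a larger change. In the authors' deposited table, whose test asks whether a gene differs between any of the 4 doses, 1039 of the genes that rose and 1054 of those that fell had an adjusted p under 0.05.

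**Figure D1:**
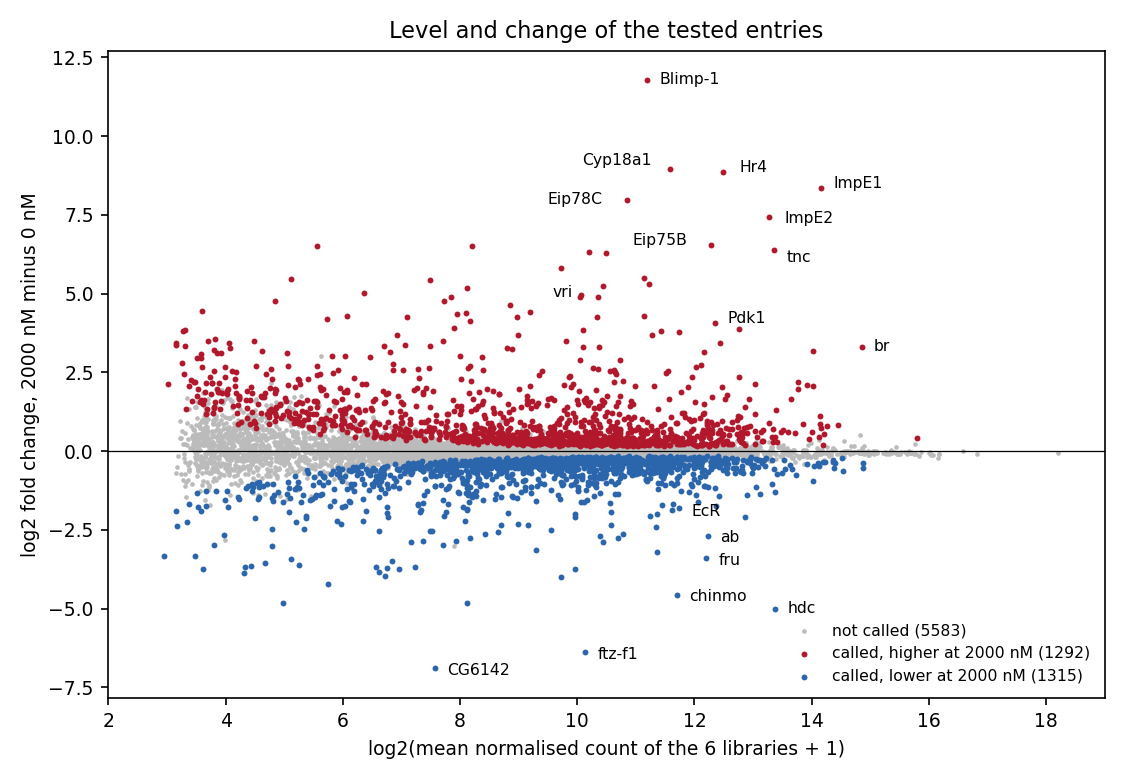
Log2 fold change of 2000 nM over 0 nM (vertical axis) against mean normalised count over the 6 libraries (horizontal log axis) for the 8190 tested entries. Entries that rose (1292) and fell (1315) are coloured and the others grey, and the largest named changes lie above the zero line, where 39 entries passed 16-fold against 7 below it.

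With each of the 6 libraries left out in turn, 1709 entries (845 higher, 864 lower) were called every time. Each gene named below as having risen or fallen belongs to these unless a library is named beside it. Pairs of replicates had Pearson correlations across genes (log2 scale) of 0.986 to 0.991 at 2000 nM and 0.987 to 0.989 at 0 nM, and genes are not independent replicates. High values within a dose were not spread evenly over its libraries. Of the 2000 nM libraries, replicate 3 held the highest value of 580 of the 1292 genes that rose and of 369 of the 1315 that fell, but of 40 of the 69 that fell by at least 4-fold. On the second principal component of the 12 libraries, which took 10.7% of the variance, the 2000 nM libraries lay at 1.90, -10.4 and 22.6, against 4.87, 16.02 and -13.7 for the 0 nM libraries. At 0 nM, replicate 3 held the highest value of 640 of the 1315 genes that fell and of 208 of the 1292 that rose. The part of either library in the results was not tested, and the values without it are given where they change a call or a count.

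Nuclear receptors of the fly include EcR itself and several early genes of the hormone. Of the 19 listed 16 were tested, 9 rose and 4 fell, with a median of 0.42 log2. Hr4, a repressor that acts early in the cascade, had 12332, 10688 and 11148 normalised counts in the 2000 nM libraries, against 22.2, 22.4 and 25.3 in the 0 nM libraries. It rose by 8.87 ± 0.16 log2 (adjusted p = 3.21e-14), the largest change in the family. The receptor gene Eip78C had 3366, 3591 and 3996 in the 2000 nM libraries, against 10.5, 16 and 14.5 in the 0 nM libraries, and Eip75B, which encodes haem-binding receptor isoforms, had 10245, 8779 and 10633 in the 2000 nM libraries, against 105, 116 and 92.3 in the 0 nM libraries. They rose by 7.98 ± 0.16 and 6.55 ± 0.11. At 0 nM all these genes were low but above 0 in each library, and no library of one dose overlapped the other.

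Hr39 was already expressed without hormone and had 7746, 6792 and 7145 normalised counts in the 2000 nM libraries, against 1212, 1102 and 1115 in the 0 nM libraries, a rise of 2.66 ± 0.09. The orphan receptor svp, a COUP-TF homologue, had 695, 683 and 535 in the 2000 nM libraries, against 275, 265 and 267 in the 0 nM libraries, and rose by 1.23 ± 0.12. Hr78 stood at 2493, 2529 and 2483 in the 2000 nM libraries, against 1602, 1601 and 1512 in the 0 nM libraries, and rose by 0.67 ± 0.06. The gap-gene receptors knrl and kni rose by 0.75 ± 0.10 and 0.38 ± 0.10. ERR, homologous to the oestrogen-related receptors, rose by 0.46 ± 0.15, but its call was lost without any one library other than 2000 nM replicate 3 (adjusted p = 0.0577 to 0.083) with upper-quartile scaling (0.0521) and without the filter (0.0525). Antisense RNA genes lie opposite 33.1% of the exon length of ERR and 18.3% of that of Hr78. The folds of these genes were at most 6.32, whereas those of Hr4, Eip78C and Eip75B were 469, 252 and 93.9.

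The 4 receptors that fell were ftz-f1, EcR, Hr38 and Hnf4. ftz-f1, which gives tissues the competence to answer the later prepupal pulse of hormone, had 16.1, 15.8 and 63.1 normalised counts in the 2000 nM libraries, against 2225, 2228 and 2157 in the 0 nM libraries. It fell by 6.38 ± 0.38 log2, and 2000 nM replicate 3 lay above the other libraries of its dose. In the annotation 29.4% of its exon length is shared with a long non-coding RNA gene on the same strand, so reads of both cannot be told apart here. EcR stood at 1689, 1315 and 1578 in the 2000 nM libraries, against 5561, 5109 and 5285 in the 0 nM libraries, and changed by -1.81 ± 0.09. Its partner usp, whose exons are in part shared with Actn, had 1539, 1617 and 1421 in the 2000 nM libraries, against 1496, 1376 and 1497 in the 0 nM libraries, and was not called (0.07 ± 0.07 log2, adjusted p = 0.487). Hr38, the NR4A homologue, was expressed at few counts, 4.77, 6.32 and 10.5 in the 2000 nM libraries, against 27.5, 17.1 and 22.8 in the 0 nM libraries, and changed by -1.55 ± 0.41, or by -0.92 with 10 added before the log2 step. Hnf4 changed by -0.20 ± 0.07, a call lost without any one library other than 2000 nM replicate 3 (adjusted p = 0.0538 to 0.156), and also without the filter or the intensity trend or with the 6 libraries alone (0.0569 to 0.0981). Hr96 and eg were not called (adjusted p = 0.576 and 0.412).

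Hr3, Hr51 and Hr83 did not pass the filter. Hr3, a target of EcR that rises later in the classical cascade, had 8.94, 7.90 and 4.51 normalised counts in the 2000 nM libraries and 0 in each 0 nM library. Its gene shares 61.8% of its exon length with CG12912 on the same strand. Eip93F, a factor of the end of larval life, had 5.96, 1.58 and 7.51 in the 2000 nM libraries, against 0, 1.07 and 2.53 in the 0 nM libraries. A count of 3 reads was worth 1.79, 4.74 and 2.25 in the 2000 nM libraries. Hr3 lay above this in each of them, and Eip93F in replicates 1 and 3. Both genes had few reads after 2.5 h and were not tested.

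**Figure D2:**
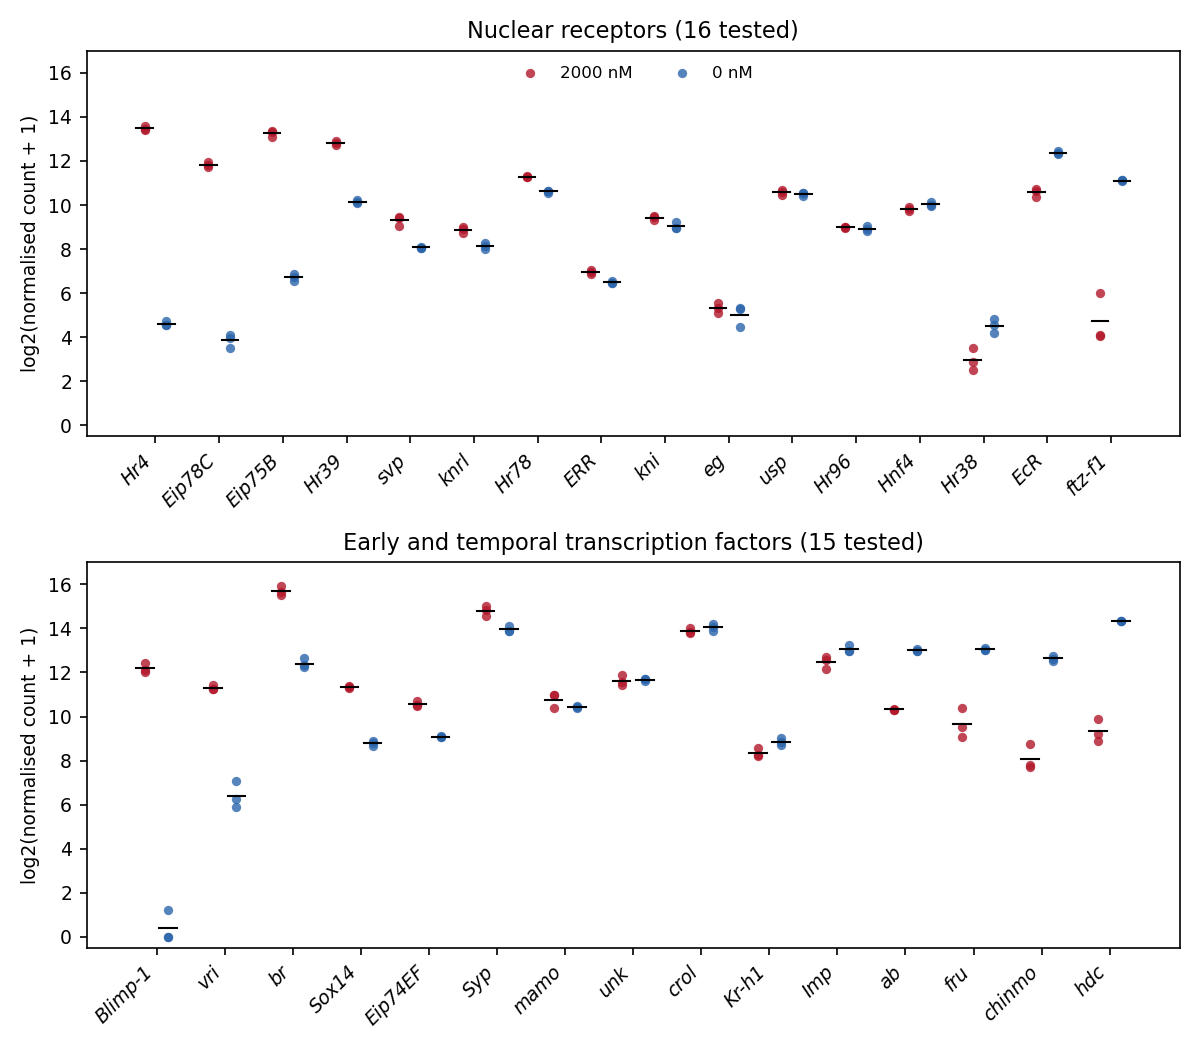
Normalised count plus 1 (log axis) of each of 16 nuclear receptor genes and 15 early and temporal factor genes in the 3 libraries at 2000 nM (left of each pair) and the 3 at 0 nM (right of each pair). The libraries of Hr4, Eip78C, Eip75B, Blimp-1, ftz-f1, hdc, chinmo and fru lie far apart between the doses, and those of usp overlap.

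Of the 8 cofactors of EcR, all tested, 4 rose and 1 fell. The coactivator tai had 7741, 6362 and 6636 normalised counts in the 2000 nM libraries, against 3974, 3725 and 3763 in the 0 nM libraries, and rose by 0.85 ± 0.08. skd, a Med13 subunit of the Mediator kinase module, rose by 0.66 ± 0.11 and the histone H3K27 demethylase Utx, which binds EcR, by 0.44 ± 0.06. ecd rose by 0.27 ± 0.08, but was not called without 0 nM replicate 2 (adjusted p = 0.0589) or 2000 nM replicate 2 (0.0642). rig, which encodes a protein that binds several of these nuclear receptors, fell by 0.49 ± 0.09. The corepressor Smr, the methyltransferase trr and the Mediator gene kto were not called.

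Early and temporal factors mark either the first answer to the hormone or the age of a tissue. Most of those listed are transcription factors, but Syp, Imp, lin-28, hdc and unk are not. Of the 18 listed 15 were tested, 7 rose and 5 fell. Blimp-1, which encodes a zinc-finger repressor known to delay ftz-f1 in prepupae, had 5495, 4375 and 4170 normalised counts in the 2000 nM libraries, against 1.31, 0 and 0 in the 0 nM libraries. That is 17537 reads against 1. With the reads of each dose pooled and divided by the summed size factors of its libraries, the ratio was 15810 (95% interval 2838 to 624700, counting error only). vri, a bZIP repressor also used by the clock, had 2741, 2463 and 2409.8 in the 2000 nM libraries, against 74.6, 132 and 59.4 in the 0 nM libraries, and rose by 4.90 ± 0.20. br, the zinc-finger gene that specifies pupal fate, had 62024, 46654 and 52144 in the 2000 nM libraries, against 6426, 5104 and 4808 in the 0 nM libraries, and rose by 3.30 ± 0.13.

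Sox14, a high-mobility-group factor of metamorphosis, had 2649, 2569 and 2485 normalised counts in the 2000 nM libraries, against 470, 438 and 408 in the 0 nM libraries. It rose by 2.55 ± 0.07. The ETS factor Eip74EF had 1662, 1427 and 1461 in the 2000 nM libraries, against 534, 554 and 529 in the 0 nM libraries, and rose by 1.49 ± 0.08, and Syp, an RNA-binding protein of late temporal identity, had 32871, 24285 and 29369 in the 2000 nM libraries, against 17572, 15296 and 15236 in the 0 nM libraries, and rose by 0.84 ± 0.12. mamo rose by 0.34 ± 0.12, a call lost without any one library other than 2000 nM replicate 2 (adjusted p = 0.0857 to 0.194), where the change was 0.54, and lost with TMM or upper-quartile scaling, with limma-voom, without the filter or the intensity trend and with the 6 libraries alone (0.0512 to 0.11).

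The 5 members that fell were hdc, chinmo, fru, ab and Imp. hdc, which holds imaginal cells undifferentiated, had 581, 473 and 948 normalised counts in the 2000 nM libraries, against 20977, 20495 and 20513 in the 0 nM libraries, a change of -5.01 ± 0.19. The BTB factor chinmo had 206, 224 and 425 in the 2000 nM libraries, against 5952, 6938 and 6200.2 in the 0 nM libraries, and changed by -4.55 ± 0.23. fru, another BTB factor, had 724, 531 and 1348 in the 2000 nM libraries, against 8402, 8841 and 8255 in the 0 nM libraries, and changed by -3.40 ± 0.28. In these 3 genes the highest of the 2000 nM libraries was replicate 3, and it still lay far below every 0 nM library. ab, a zinc-finger gene, had 1296, 1276 and 1263 in the 2000 nM libraries, against 8162, 8127 and 8599 in the 0 nM libraries, and changed by -2.70 ± 0.06, with 2000 nM replicate 3 level with the other 2. Imp, an RNA-binding protein of early temporal identity, had 5981, 4551 and 6695 in the 2000 nM libraries, against 8095, 9795 and 7989 in the 0 nM libraries, and changed by -0.60 ± 0.13. Its exons share 14.3% of their length with a long non-coding RNA gene on the same strand. Kr-h1, an effector of juvenile hormone, stood at -0.50 ± 0.19 and was not called (adjusted p = 0.0571), nor were crol and unk, and dati and lin-28 were not tested with Eip93F.

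Genes that make, move or destroy the hormone changed at single steps. Of the 11 listed 9 were tested, 3 rose and 1 fell. Cyp18a1, which inactivates 20E, had 5531, 6065 and 6716 normalised counts in the 2000 nM libraries, against 11.8, 18.1 and 6.32 in the 0 nM libraries (change 8.97 ± 0.26). phm, the 25-hydroxylase of ecdysone synthesis, had 304, 417 and 329 in the 2000 nM libraries, against 9.16, 4.26 and 8.85 in the 0 nM libraries, and rose by 5.43 ± 0.22. Cyp6t3, another enzyme of that synthesis, had 103, 71.1 and 96.1 in the 2000 nM libraries, against 60.2, 32 and 27.8 in the 0 nM libraries, and rose by 1.21 ± 0.26. The importer Oatp74D had 1889, 1766 and 1868 in the 2000 nM libraries, against 3786, 3770.3 and 3541 in the 0 nM libraries, and changed by -1.01 ± 0.07. The synthesis genes sad and sro and the sterol transporter Npc1a were not called, and dib and shd were below the filter.

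Of 18 Imp, Eip and Edg genes, first found as ecdysone-inducible transcripts, 12 were tested, 6 rose and Eip55E fell by 0.42 ± 0.10 log2. Without 0 nM replicate 1 or 2000 nM replicate 2 the counts were 5 and 2, and with limma-voom 6 and 2. Eip78C, Eip75B and Eip74EF, which also rose, are counted in the lists above and not in this one. ImpL2, a secreted protein that binds insulin-like peptides, had 754, 1103 and 954 normalised counts in the 2000 nM libraries, against 57.6, 117 and 51.2 in the 0 nM libraries, and rose by 3.70 ± 0.33, with 61.9% of its exon length shared with CG46460. Ldh, the lactate dehydrogenase gene, had 1743, 1946 and 2229 in the 2000 nM libraries, against 233, 266 and 123 in the 0 nM libraries, and rose by 3.31 ± 0.30. It was the single rise among 13 glycolysis genes, of which 10 fell, with a median of -0.62 log2 and Pglym78, Pfk and PyK at -1.46 ± 0.13, -1.37 ± 0.09 and -1.14 ± 0.08. ImpE1, ImpE2 and ImpE3 rose by 8.36 ± 0.24, 7.43 ± 0.34 and 2.13 ± 0.21. Fbp1, a fat body storage protein receptor gene, rose by 2.67 ± 0.78 and was lost without 0 nM replicate 1 (adjusted p = 0.0682), 2000 nM replicate 2 (0.0607) or 2000 nM replicate 3 (0.0588), or with 0.1 added before the log2 step (0.0655).

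Of 28 Wnt pathway genes, all tested, 14 rose and 2 fell, with a median of 0.21 log2. The ligand wg had 2233, 2077 and 2195 normalised counts in the 2000 nM libraries, against 929, 1038 and 828 in the 0 nM libraries, and rose by 1.22 ± 0.08. Its neighbours Wnt6 and Wnt4 rose by 1.10 ± 0.07 and 1.95 ± 0.21, Wnt2 by 0.56 ± 0.09 and the feedback inhibitor nkd by 0.96 ± 0.09. The receptor genes fz2 and fz3 rose by 0.38 ± 0.09 and 0.67 ± 0.10, whereas the coreceptor gene arr fell by 0.43 ± 0.09. The list also holds fw, a selectin-like adhesion gene, which rose by 1.55 ± 0.11. With 2000 nM replicate 1, 2000 nM replicate 3 or any 0 nM library left out, or without the intensity trend, only 1 member fell, since por was then not called (adjusted p = 0.0535 to 0.142).

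BMP and activin signalling held 25 genes, of which 23 were tested, 6 rose and 2 fell. tld and tok, metalloproteases that free Dpp by cutting the BMP antagonist Sog, both rose. tld had 4710.2, 4067 and 6566 normalised counts in the 2000 nM libraries, against 831, 1177 and 650 in the 0 nM libraries, and rose by 2.54 ± 0.19. tok had 26177, 20253 and 20269 in the 2000 nM libraries, against 6124, 5567 and 5150.5 in the 0 nM libraries, and rose by 1.98 ± 0.13. The antagonist sog itself rose by 1.09 ± 0.14, the ligand dpp by 0.62 ± 0.08 and the activin-like ligand daw by 2.70 ± 0.43. Without 0 nM replicate 1 or 2000 nM replicate 2 only 1 gene fell (cv-2, a BMP-binding protein, by 0.32 ± 0.08), while 4 fell with limma-voom or upper-quartile scaling. Of the 13 Hedgehog genes 4 rose, among them the ligand hh by 0.40 ± 0.06 and shf, which lets the ligand spread, by 0.57 ± 0.08. The single fall in that list was lost without 0 nM replicate 2 or 3 or 2000 nM replicate 1 or 3.

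EGF receptor signalling had 11 rises and 4 falls among 22 tested genes. The ligands vn and spi rose by 1.04 ± 0.18 and 0.50 ± 0.10, the chaperone of Spi, S, by 0.70 ± 0.07, and the receptor Egfr by 0.45 ± 0.08. The repressor cic, which the pathway removes, fell by 0.77 ± 0.12 and the secreted inhibitor aos by 0.58 ± 0.08. There were 2 falls when 0 nM replicate 1, 0 nM replicate 3 or 2000 nM replicate 3 was left out. All 3 FGF ligands of the fly rose, bnl by 0.68 ± 0.14, ths by 0.44 ± 0.10 and pyr by 0.42 ± 0.09. The FGF receptor gene htl and its adaptor stumps, both genes of adult muscle precursors, changed by -0.71 ± 0.10 and -0.45 ± 0.09.

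Notch pathway genes numbered 29 tested, with 11 rises and 5 falls. The coactivator mam had 8353, 7209 and 7741 normalised counts in the 2000 nM libraries, against 2509.6, 2377 and 2211 in the 0 nM libraries, and rose by 1.71 ± 0.08. numb, an inhibitor, rose by 0.72 ± 0.05 and the ligands Dl and Ser by 0.49 ± 0.10 and 0.45 ± 0.08, while N itself stood at 0.04 log2 and was not called. Of 10 tested genes of the E(spl) complex, which Notch switches on, 1 rose and 5 fell. E(spl)m7-HLH changed by -1.10 ± 0.14 and E(spl)mgamma-HLH by -0.94 ± 0.19. The member that rose was E(spl)m2-BFM, by 0.67 ± 0.08.

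Of 17 JNK pathway genes 7 rose and 1 fell (6 and 2 without 2000 nM replicate 3). Ilp8, a relaxin-like peptide that growing or damaged discs send to delay metamorphosis, had 160.4, 362 and 697 normalised counts in the 2000 nM libraries, against 18.3, 27.7 and 2.53 in the 0 nM libraries, and rose by 4.78 ± 0.67. Its 3 values at 2000 nM differed more than 4-fold among themselves. The TNF ligand egr rose by 0.51 ± 0.12, the Fos gene kay by 0.57 ± 0.08 and the matrix protease Mmp1 by 0.90 ± 0.18, whereas the feedback phosphatase puc was not called (0.10 log2). In the JAK/STAT list of 11, 1 gene rose (9.09%) and 2 fell (18.2%), beside 15.8% and 16.1% over all entries. The ligand upd1 rose by 0.57 ± 0.17, a call lost without 0 nM replicate 3 (adjusted p = 0.0913) or 2000 nM replicate 3 (0.0716), while the list had 2 rises without 0 nM replicate 2. The transcription factor Stat92E fell by 0.40 ± 0.09, and the other fall was that of chinmo, a target of the pathway.

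Insulin and TOR genes held 6 rises and 8 falls of 26. Pdk1, the kinase that activates Akt, had 10384, 9559.6 and 9562 normalised counts in the 2000 nM libraries, against 610, 636 and 521 in the 0 nM libraries, and rose by 4.06 ± 0.09. The receptor InR had 10596, 7274 and 9451 in the 2000 nM libraries, against 2355, 2372 and 1941 in the 0 nM libraries, and rose by 2.02 ± 0.15. On the side of restraint, PRAS40, an inhibitor of TORC1, had 1343, 1263 and 1409.5 in the 2000 nM libraries, against 4770.4, 4682 and 5293 in the 0 nM libraries, and changed by -1.88 ± 0.09. scyl and chrb, which restrain TORC1 in stress, changed by -1.37 ± 0.07 and -1.03 ± 0.10, and REPTOR, a factor that TORC1 holds out of the nucleus, by -1.03 ± 0.13. Thor, the translation inhibitor 4E-BP, changed by -0.73 ± 0.15 and Sdr, a secreted decoy for insulin-like peptides, by -0.90 ± 0.11. ImpL2, which also binds these peptides, rose as given above. Of 20 Hippo and Fat-Dachsous genes 7 rose and 2 fell, with the kinase wts at 0.40 ± 0.08, the Golgi kinase fj at 0.58 ± 0.10 and its opponent in growth control d at -0.33 ± 0.08.

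Wing selector and regional identity genes, the factors that tell disc cells which part of the wing they form, were tested in 37 cases. Of these 28 rose and 0 fell by limma (none also at an unadjusted p under 0.05 and none by limma-voom), and 25 held with each library left out. The median was 0.44 log2, beside -0.01 over all entries. bs, the serum response factor of intervein cells, had 1768, 1758 and 1738 normalised counts in the 2000 nM libraries, against 829, 796 and 710.1 in the 0 nM libraries, and rose by 1.17 ± 0.07. Dll of the wing margin rose by 0.95 ± 0.08, ush and eyg of the notum by 0.86 ± 0.09 and 0.81 ± 0.06, ap of the dorsal side by 0.78 ± 0.07 and nub of the wing pouch by 0.67 ± 0.06. vg, sd, bi, salr, ct, vvl, Antp, zfh2 and net were not called. Of the named members, bs was the one above 2-fold.

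**Figure D3:**
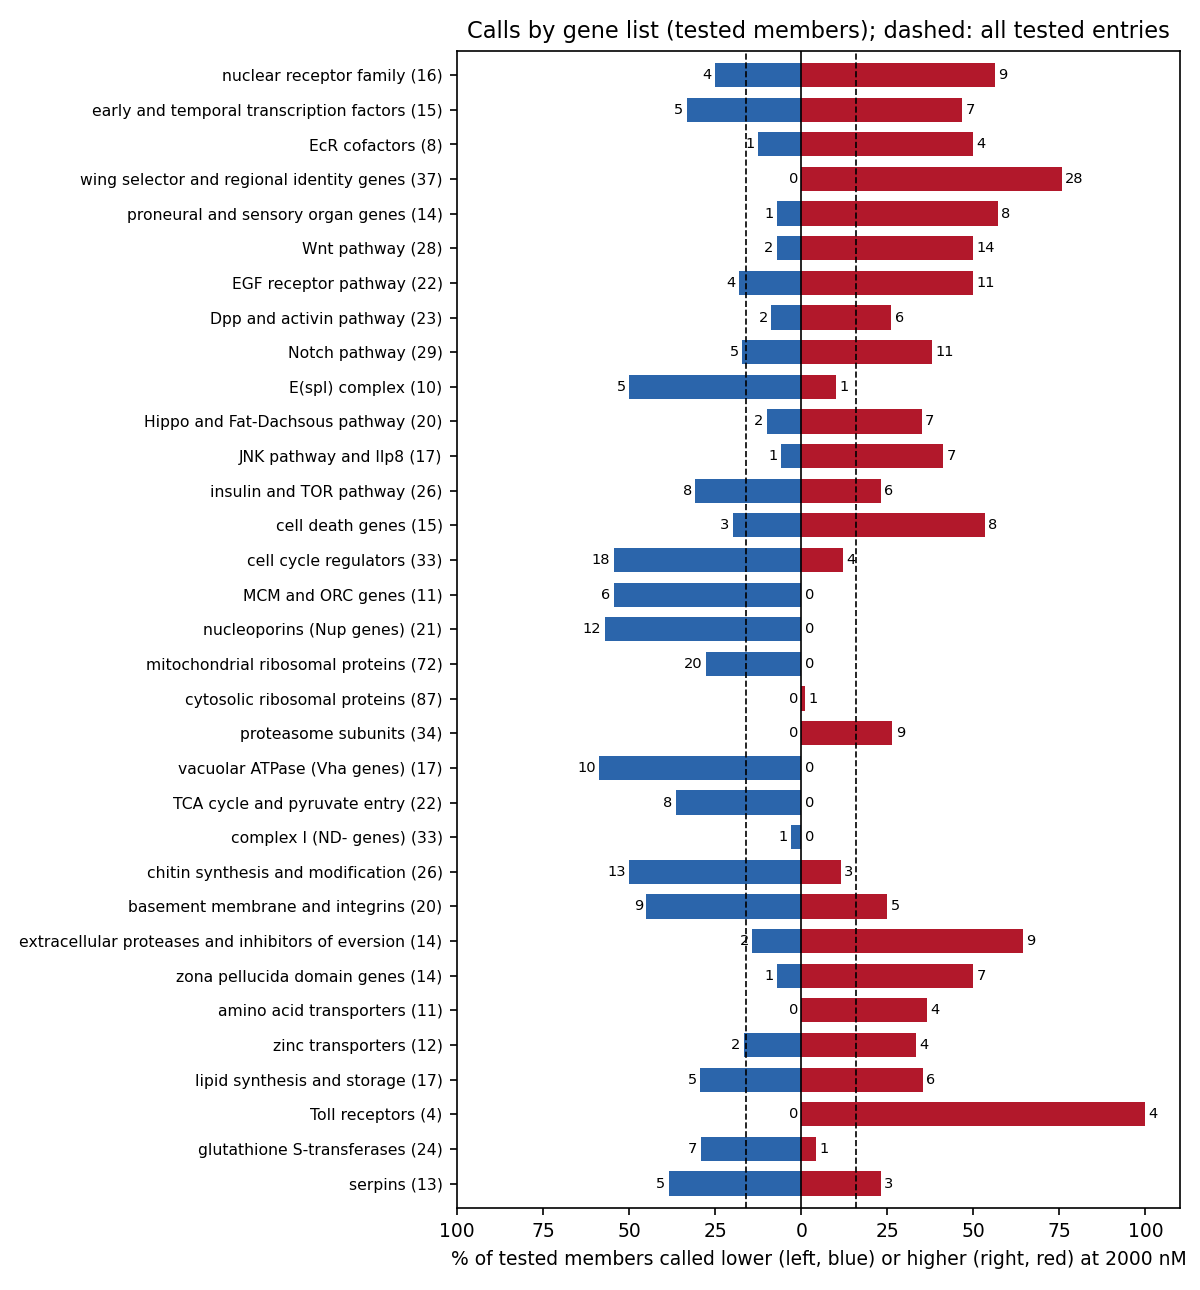
Percent of tested members that fell (left of 0) or rose (right of 0) at 2000 nM in each gene list, with the numbers tested, and dashed lines at the background of 16.1% and 15.8% over all 8190 entries. Wing selector genes lie on the rising side with 28 of 37, and vacuolar ATPase genes on the falling side with 10 of 17.

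Of 14 tested proneural and sensory organ genes 8 rose and 1 fell. sens, a zinc-finger gene of sensory organ precursors, had few counts, 33.4, 56.9 and 27.8 in the 2000 nM libraries, against 5.24, 5.33 and 0 in the 0 nM libraries, and rose by 3.50 ± 0.60 (1.85 with 10 added before the log2 step). sc, a proneural gene, had 385, 359 and 364 normalised counts in the 2000 nM libraries, against 165, 126 and 154 in the 0 nM libraries, and rose by 1.32 ± 0.12. Its neighbour ac rose by 1.29 ± 0.15 and phyl, which acts downstream of them, by 1.60 ± 0.33. emc, an inhibitor of proneural proteins, rose too, by 0.77 ± 0.07, and the zinc-finger gene chn changed by -1.20 ± 0.07. Of 15 cell death genes 8 rose and 3 fell. The initiator caspase Dronc had 2166, 1857 and 2171 in the 2000 nM libraries, against 640.1, 689 and 655 in the 0 nM libraries, and rose by 1.64 ± 0.08. The caspase Strica rose by 1.24 ± 0.20, the inhibitor-of-apoptosis antagonists rpr and hid by 1.23 ± 0.13 and 1.08 ± 0.10, and the Apaf homologue Dark by 0.91 ± 0.18, while p53 changed by -0.78 ± 0.16. Antisense RNA genes lie opposite 56.9% of the exon length of Dark and 38% of that of p53.

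Of 33 cell cycle regulators 4 rose and 18 fell, with a median of -0.21 log2. The falls numbered 12 to 18 with 1 library left out, and 11 held every time. Cdk4, which promotes growth and G1 progression, had 1519, 1579 and 1621 normalised counts in the 2000 nM libraries, against 838, 838 and 803 in the 0 nM libraries, and rose by 0.93 ± 0.06, and E2f1 rose by 0.75 ± 0.07. stg, the Cdc25 phosphatase that starts mitosis, had 2084, 2072 and 2048 in the 2000 nM libraries, against 4348, 4629 and 3492 in the 0 nM libraries, and was 2-fold lower. The mitotic kinase aurA changed by -0.85 ± 0.12 and CycB by -0.65 ± 0.08, and dap, an inhibitor of the cycle, by -0.71 ± 0.08. Of 11 MCM and ORC genes, which license replication origins, 6 fell and 0 rose (0 at an unadjusted p under 0.05, 0 by limma-voom), with Mcm2 at -0.48 ± 0.09 and Mcm3 at -0.53 ± 0.09.

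Large protein machines differed in how they stood at 2000 nM. Of 21 nucleoporin genes 12 fell, with a median of -0.26 log2, led by Nup133 at -0.59 ± 0.12 and Nup205 at -0.54 ± 0.09. The falls numbered 6 without 0 nM replicate 3 and 5 without 2000 nM replicate 3. Of 72 mitochondrial ribosomal protein genes 20 fell (27.8%, beside 16.1% over all entries), with a median over the 72 of -0.16. Among them mRpS30 had 710.1, 792 and 688 in the 2000 nM libraries, against 1190, 1212 and 1303 in the 0 nM libraries (-0.76 ± 0.07). The 20 falls became 8 without 0 nM replicate 3, 9 without 2000 nM replicate 1 and 11 without 2000 nM replicate 3. With the same libraries left out, the 1315 falls over all entries became 986, 1159 and 1060. No member of either list rose by limma, by limma-voom or at an unadjusted p under 0.05.

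Cytosolic ribosomal proteins gave another picture. Of 87 tested, 86 were not called and RpS19b, a paralogue of RpS19a, had 53.7, 36.4 and 70.6 normalised counts in the 2000 nM libraries, against 10.5, 10.7 and 13.3 in the 0 nM libraries, and rose by 2.09 ± 0.33. None fell by limma, by limma-voom or at an unadjusted p under 0.05. RpS19b dropped out of the test at a filter of 50, and 2 members rose without 0 nM replicate 2. Of 34 proteasome genes 9 rose, but Rpn10 alone (0.30 ± 0.08) held with every library left out. Those 9 became 2 without 0 nM replicate 1 or 2000 nM replicate 2, 3 without 0 nM replicate 3, 5 without 2000 nM replicate 3, 4 with TMM scaling and 1 with upper-quartile scaling. They were 2 with the 6 libraries alone, 4 without the filter, 5 without the intensity trend, 6 with limma-voom and 14 at an unadjusted p under 0.05. No ATP synthase gene of 12 and no CCT chaperonin gene of 8 was called in either direction, also at an unadjusted p under 0.05 and by limma-voom.

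The vacuolar ATPase, which acidifies lysosomes and other compartments, had 10 falls and 0 rises among 17 tested genes by limma (1 rise at an unadjusted p under 0.05, 0 by limma-voom). Vha68-2, a catalytic subunit, had 3156, 2989 and 2982 normalised counts in the 2000 nM libraries, against 5020.4, 4849.5 and 5042 in the 0 nM libraries, and changed by -0.71 ± 0.05. VhaSFD and Vha100-2 changed by -0.61 ± 0.07 and -0.59 ± 0.06, and 9 of the 10 calls held with every library left out. In the TCA cycle 8 of 22 genes fell (5 without 0 nM replicate 3 or 2000 nM replicate 3), with Men-b at -0.97 ± 0.09 and the mitochondrial pyruvate carrier Mpc1 at -0.63 ± 0.12. Of 32 aminoacyl-tRNA synthetase genes 4 rose (12.5%), 4 fell (12.5%) and 24 were not called, both shares lying below those over all entries. ValRS, AsnRS and LeuRS rose by 0.40 ± 0.09, 0.32 ± 0.06 and 0.27 ± 0.06, whereas IleRS-m and AsnRS-m changed by -0.44 ± 0.10 and -0.46 ± 0.12. MetRS was lost without any one library other than 2000 nM replicate 3 (adjusted p = 0.0876 to 0.147). The falls numbered 2 without 0 nM replicate 3, without 2000 nM replicate 3 or with the 6 libraries alone, since MetRS-m and TyrRS-m were then lost.

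Of 12 zinc transporter genes 4 rose and 2 fell. ZnT77C, which moves zinc out of the cytosol, had 1689, 1634 and 1603 normalised counts in the 2000 nM libraries, against 102, 201 and 150.5 in the 0 nM libraries, and rose by 3.48 ± 0.17. ZnT41F, of the same family, had 817, 705 and 909 in the 2000 nM libraries, against 94.3, 94.8 and 62.6 in the 0 nM libraries, and rose by 3.27 ± 0.19. ZnT63C rose by 0.79 ± 0.07 and the importer-family gene Zip89B by 1.32 ± 0.23, while Zip99C changed by -0.47 ± 0.11. The other fall, that of Zip88E, was lost without 0 nM replicate 1 (adjusted p = 0.0643).

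Amino acid and sugar carriers rose at a few genes. The growth-promoting amino acid transporter path had 5365, 5162 and 4891 normalised counts in the 2000 nM libraries, against 428, 425 and 269 in the 0 nM libraries, and rose by 3.81 ± 0.20. mnd, a light chain of the CD98 exchanger, had 2381, 2641 and 2163 in the 2000 nM libraries, against 226, 322 and 191 in the 0 nM libraries, and rose by 3.31 ± 0.17, and its heavy chain CD98hc rose by 0.89 ± 0.07. These were 3 of 4 rises among 11 tested amino acid transporters, with 0 falls by limma, by limma-voom or at an unadjusted p under 0.05. Tret1-1, a trehalose transporter, had 1025, 1179 and 2061 in the 2000 nM libraries, against 279, 491 and 232 in the 0 nM libraries, and rose by 2.09 ± 0.32, and Glut1 rose by 1.81 ± 0.17. Pepck2, a gluconeogenic enzyme gene, changed by -1.86 ± 0.16. In the same list 4 members rose without 0 nM replicate 2 in place of 2.

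Lipid genes held 6 rises and 5 falls of 17. The lipase bmm, which breaks down stored fat, had 311, 253 and 410 normalised counts in the 2000 nM libraries, against 32.7, 39.4 and 21.5 in the 0 nM libraries, and rose by 3.35 ± 0.30. FASN1, the fatty acid synthase, rose by 0.80 ± 0.20, while ATPCL, which supplies its acetyl-CoA, changed by -0.46 ± 0.08, the desaturase Desat1 by -0.54 ± 0.10 and the lipoprotein receptor LpR1 by -0.61 ± 0.09.

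Extracellular matrix genes changed in both directions and by large amounts. Of 20 basement membrane and integrin genes 5 rose and 9 fell. tnc, a mucin-like ligand of integrins, had 25718, 18651 and 18115 normalised counts in the 2000 nM libraries, against 302, 262 and 184 in the 0 nM libraries, and rose by 6.39 ± 0.21. Ppn (papilin) had 34469, 25914 and 29099 in the 2000 nM libraries, against 3749, 3412 and 2685 in the 0 nM libraries, and rose by 3.19 ± 0.14, and Mp, a collagen XV/XVIII homologue, rose by 2.89 ± 0.14. Blood cells also make Ppn. The other 10 blood cell markers summed to 630.2, 369.9 and 396.5 normalised counts in the 2000 nM libraries, against 620.5, 735.1 and 314.3 in the 0 nM libraries. Of all 11 blood cell markers 5 were under 10 in each of the 6 libraries, and the part of blood cells in the rise of Ppn was not tested. The integrin alpha subunit gene scb rose by 1.38 ± 0.20, whereas another, if, had 786, 672 and 725 in the 2000 nM libraries, against 2464, 2316 and 2101 in the 0 nM libraries, and changed by -1.66 ± 0.09. The laminin gene wb changed by -1.32 ± 0.11 and the collagen IV genes vkg and Col4a1 by -0.93 ± 0.12 and -0.78 ± 0.09.

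Proteases that remodel matrix rose in 9 of 14 tested genes and fell in 2 (1 with a filter of 50). Np, a transmembrane serine protease needed for eversion, had 2022, 1943 and 2196 normalised counts in the 2000 nM libraries, against 200.3, 130 and 109 in the 0 nM libraries, and rose by 3.85 ± 0.18. The ADAMTS protease AdamTS-A had 5008, 4622 and 4203 in the 2000 nM libraries, against 360, 381 and 326 in the 0 nM libraries, and rose by 3.69 ± 0.09, and Mmp2 rose by 1.42 ± 0.14. Timp, the inhibitor of the Mmp proteases, changed by -0.98 ± 0.26, and 15.7% of its exon length lies opposite Syn. Of 14 genes in a list of zona pellucida domain proteins, which shape the apical matrix, 7 rose and 1 fell. neo had 10769.6, 10122 and 9509.9 in the 2000 nM libraries, against 945, 983 and 905 in the 0 nM libraries, and rose by 3.42 ± 0.06, pio rose by 0.91 ± 0.06 and nyo changed by -0.53 ± 0.12. That list also holds f, an actin-bundling protein gene of bristles, which rose by 1.61 ± 0.22.

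Of 26 tested chitin genes 3 rose and 13 fell, with a median of -0.54 log2. Gfat1, the first enzyme of the pathway that makes the chitin precursor, had 2414, 2382 and 2551 normalised counts in the 2000 nM libraries, against 8499, 7602 and 8350.1 in the 0 nM libraries, and changed by -1.73 ± 0.06. mmy, which makes UDP-N-acetylglucosamine, changed by -1.05 ± 0.07, the chitinase-like growth factor Idgf4 by -1.12 ± 0.08 and Cht6 by -1.69 ± 0.17. The chitinases Cht10 and Cht5 rose by 1.67 ± 0.17 and 1.62 ± 0.10 and the chitin synthase kkv by 0.67 ± 0.08. jar, the myosin VI gene, had 13983, 13148 and 13690.4 in the 2000 nM libraries, against 3168, 3422 and 2800 in the 0 nM libraries, and rose by 2.12 ± 0.10, while Moe and dia, which link or build actin filaments, changed by -0.55 ± 0.07 and -0.58 ± 0.09. Of 34 junction and polarity genes 26 were not called, 4 rose (11.8%) and 4 fell (11.8%). Both shares lay below those over all entries (15.8% and 16.1%). The counts were 9 and 7 in a fit with the replicate number as a block.

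The small heat shock genes Hsp26, Hsp27 and Hsp23, which are hormone-inducible as well as heat-inducible, rose by 2.47 ± 0.49, 2.07 ± 0.15 and 1.66 ± 0.30. Hsp27 had 23701, 29499 and 26887 normalised counts in the 2000 nM libraries, against 6161, 8426 and 4856 in the 0 nM libraries. Hsp60A, the mitochondrial chaperonin, changed by -0.53 ± 0.08. The 4 tested Toll receptor genes rose, 18w by 0.94 ± 0.11, with Tl lost without 0 nM replicate 3 (adjusted p = 0.107), 2000 nM replicate 1 (0.0851) or 2000 nM replicate 3 (0.0907). Among clock genes Pdp1, the partner and opponent of vri, had 176, 183 and 195 in the 2000 nM libraries, against 679, 732 and 737 in the 0 nM libraries, and changed by -1.95 ± 0.11.

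Among the families of detoxification, 7 of 24 glutathione S-transferase genes fell and 1 rose (2 rose without 0 nM replicate 1 or with limma-voom, and none with a filter of 50). Of 30 cytochrome P450 genes 6 rose and 6 fell (5 and 3 with a filter of 50), 20% each beside 15.8% and 16.1% over all entries. Cyp49a1 changed by -3.68 ± 0.72 (-1.83 with 10 added before the log2 step) and Cyp310a1 by -2.53 ± 0.34. Of 27 Rab GTPase genes, which direct vesicle traffic, 7 rose and 2 fell, with Rab32 of lysosome-related organelles at 1.83 ± 0.15 and Rab27 at -0.78 ± 0.12. The falls were 1 without 0 nM replicate 1 or 3 or 2000 nM replicate 1 or 3.

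Genes outside the lists are given by the size of their change. nemy, a cytochrome b561 gene, had 526, 571 and 523 normalised counts in the 2000 nM libraries, against 23.6, 6.39 and 17.1 in the 0 nM libraries, and rose by 5.18 ± 0.30. snsl had 0.6, 1.58 and 1.5 in the 2000 nM libraries, against 57.6, 62.9 and 60.1 in the 0 nM libraries, and changed by -4.81 ± 0.58, or by -2.65 with 10 added before the log2 step. DOR, a nuclear receptor coregulator and autophagy gene, had 90.0, 107 and 265 in the 2000 nM libraries, against 1782, 1858 and 1869.8 in the 0 nM libraries, and changed by -3.73 ± 0.27, with 2000 nM replicate 3 again the highest of its dose. By change in mean count, Pdcd4, a translation inhibitor, was among the 5 largest falls at 11356, 11335 and 11235 in the 2000 nM libraries, against 21316, 21668 and 23031 in the 0 nM libraries (-0.96 ± 0.07).

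Many called genes carry only a number. Of 2772 tested CG-numbered genes 391 (14.1%) rose and 416 (15%) fell, both shares lying below those over all entries (15.8% and 16.1%). CG14598 had 2287, 2426 and 2276 normalised counts in the 2000 nM libraries, against 23.6, 35.2 and 25.9 in the 0 nM libraries, and rose by 6.34 ± 0.12. CG10026, CG10960 and CG1273 rose by 6.50 ± 0.44, 6.29 ± 0.20 and 5.81 ± 0.09. CG6142 had 1.19, 1.58 and 4.51 in the 2000 nM libraries, against 325, 394 and 408 in the 0 nM libraries, and changed by -6.90 ± 0.56, and CG8170, CG12164 and CG12268 by -4.83 ± 0.32, -4.20 ± 0.60 and -3.98 ± 0.22. What these genes do is not given in the files.

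Of 540 long non-coding RNA genes 127 were tested, 22 (17.3%) rose and 11 (8.66%) fell, beside 15.8% and 16.1% over all entries. These counts were 18 and 5 without 0 nM replicate 3, 19 and 6 without 2000 nM replicate 1, and 10 and 3 with a filter of 50. lncRNA:CR43626 and lncRNA:CR45920 rose by 4.29 ± 0.28 and 2.61 ± 0.23. lncRNA:Hsromega, the heat-shock RNA of nuclear speckles, had 257, 285 and 227 normalised counts in the 2000 nM libraries, against 585, 487 and 632 in the 0 nM libraries, and changed by -1.14 ± 0.16. The strand setting of the read counting is not stated in what was used here, so reads of an antisense gene and of its partner cannot be told apart.

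Some genes stood at or near 0 without hormone. CG13813 had 352 reads in the 2000 nM libraries together and 0 in the 0 nM libraries, which makes it at least 106-fold higher against a floor of 3 reads over the group (the exact interval starts at 85.6). lncRNA:CR44867 had 74 reads against 0 and was at least 22.2-fold higher (exact interval from 17.6). CG9522 had 228 reads against 2, a ratio of 103 (95% interval 28.1 to 854), and scrt, a zinc-finger gene of neurons, 63 reads against 1, a ratio of 56.8 (9.83 to 2279). These exact intervals (Clopper-Pearson) cover counting error only.

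Transposable element insertions that passed the filter numbered 143, of which 15 rose (10.5%) and 2 fell (1.4%). They were grouped by the call of the gene they lie in. Of 16 inside a gene that rose, 6 rose, with a median of 0.33 log2, and of 59 inside a tested gene that was not called, 2 rose, with a median of -0.04. Neither group held a fall by limma or limma-voom, and 0 and 1 fell at an unadjusted p under 0.05. Of the 67 outside any tested gene 7 rose and 2 fell. The 3 tested INE-1 insertions inside ZnT41F lie outside its exons. They rose by 3.84 ± 0.71, 3.57 ± 0.56 and 3.35 ± 0.55, beside 3.27 ± 0.19 for the gene. The first of them had 27, 10 and 27 reads in the 2000 nM libraries, against 0, 1 and 0 in the 0 nM libraries. An HB insertion inside Hr39 rose by 2.13 ± 0.54, beside 2.66 ± 0.09 for Hr39, and a Doc insertion inside CHKov1 by 0.63 ± 0.07, beside 0.79 ± 0.11 for CHKov1. How reads that map to several copies were treated is not given in the sources used here, and whether these reads come from host transcripts was not tested. All insertions together took 0.0525%, 0.042% and 0.0564% of the 2000 nM libraries, against 0.0481%, 0.0437% and 0.0378% of the 0 nM libraries.

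**Figure D4:**
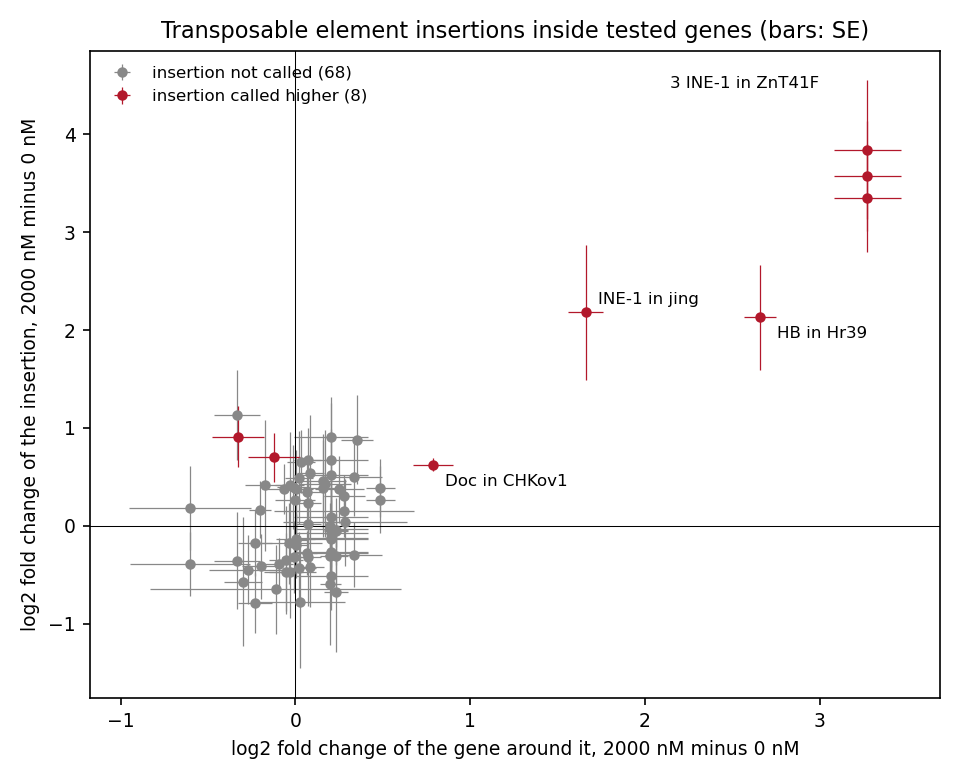
Log2 fold change of 2000 nM over 0 nM of each of 76 transposable element insertions (vertical axis) against that of the tested gene it lies in (horizontal axis). The 8 insertions that rose are marked apart from the 68 not called, and 3 of the highest share one host gene.

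Calls were also laid along the chromosome arms, by the order of tested genes in the annotation. In all, 30 runs of at least 4 neighbours were called in the same direction, 13 higher and 17 lower. With 15.8% of all entries higher and 16.1% lower, such runs can arise without any grouping of genes. The number to be expected was not computed, and not every member of the 30 runs was called with each library left out. The longest held 6 genes. A lower run on arm 3R ran over CG9737, CG9733, hdc, Fer1HCH and Fer2LCH, the last 2 being the ferritin chains, and on the X chromosome phm, Cyp18a1, CCKLR-17D3 and CG6891 formed a higher run. In the tetraspanin cluster of arm 2R a lower run (Tsp42Ea, CG30159, Tsp42Ec and Tsp42Ee) stood near a higher one (lbm, Tsp42En, Tsp42Ep and Pgant3). Within them Tsp42Ea changed by -1.58 ± 0.12 and lbm by 0.94 ± 0.17, but some members of these runs depended on single libraries. The call of Fer2LCH was lost without 0 nM replicate 2 or 3, that of Tsp42En without replicate 1 or 3 of either dose, that of Tsp42Ep without replicate 3 of either dose and that of Pgant3 without 0 nM replicate 2 or 2000 nM replicate 1 or 2 (adjusted p = 0.0603 to 0.207). Of 69 tested genes on chromosome 4, 7 rose (10.1%) and 0 fell by limma (4 fell at an unadjusted p under 0.05 and 1 by limma-voom). The share that rose lay below the 15.8% over all entries. By arm, 18.8% of genes rose and 14.7% fell on 2L and 18.6% and 13.8% on 3L, against 13.6% and 17.2% on 2R, 15.9% and 18.5% on 3R and 12.9% and 17.6% on X.

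The lower doses place the 2000 nM values on a scale. At 2000 nM against 200 nM, 14 genes rose (0.171%) and 3 fell (0.0366%), and against 20 nM 706 rose (8.62%) and 686 fell (8.38%). All 3 comparisons share the 2000 nM libraries. The first of these counts was not stable, since no gene was called without 2000 nM replicate 1 or without 200 nM replicate 3, and the count fell to 9 without 2000 nM replicate 2, 6 without 2000 nM replicate 3, 2 without 200 nM replicate 1 and 4 without 200 nM replicate 2. The limma counts at an unadjusted p under 0.05 were 473 higher and 434 lower with all libraries, 814 in both directions without 2000 nM replicate 1 and 680 without 200 nM replicate 3. Mean normalised counts of Hr4 were 23.3 ± 1.72 at 0 nM, 68.5 ± 20.2 at 20 nM, 4531 ± 88 at 200 nM and 11389 ± 848 at 2000 nM (SD, n = 3 each), and 2000 nM stood 1.33 ± 0.16 log2 above 200 nM (adjusted p = 0.0105). With all libraries CG5639, CG7720 and Glut4EF also stood higher at 2000 than at 200 nM, by 1.37 ± 0.21, 0.75 ± 0.12 and 0.69 ± 0.10, and neo by 0.44 ± 0.06. Ugt35A1, CG34120 and Gfat1 were the 3 lower genes, at -1.42 ± 0.23, -0.86 ± 0.13 and -0.36 ± 0.06.

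Genes of the cascade differed in the dose at which they neared their 2000 nM level. Eip75B had means of 104 ± 11.9 at 0 nM, 4859.5 ± 397 at 20 nM, 7698 ± 1101 at 200 nM and 9885 ± 978 at 2000 nM. vri had means of 88.7 ± 38.3 at 0 nM, 2402 ± 226 at 20 nM, 2967 ± 249 at 200 nM and 2538 ± 178 at 2000 nM, with a difference of 2000 nM from 20 nM of 0.08 ± 0.20 log2 (adjusted p = 0.835). Blimp-1, by contrast, had means of 0.44 ± 0.76 at 0 nM, 32.5 ± 28.9 at 20 nM, 2678 ± 242 at 200 nM and 4680 ± 713 at 2000 nM, so most of its expression lay at 200 nM and above. Eip74EF was highest at 20 nM, with means of 539 ± 13.1 at 0 nM, 2277 ± 193 at 20 nM, 1222 ± 69.4 at 200 nM and 1517 ± 127 at 2000 nM, and the difference of 2000 nM from 20 nM was -0.59 ± 0.08 log2 (adjusted p = 0.000115).

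The falling genes had their own profiles. ftz-f1 had means of 2203 ± 40.2 at 0 nM, 715 ± 82 at 20 nM, 59.8 ± 14.9 at 200 nM and 31.7 ± 27.2 at 2000 nM and hdc of 20662 ± 273 at 0 nM, 5581 ± 638 at 20 nM, 778 ± 119 at 200 nM and 667 ± 249 at 2000 nM. ich, a zinc-finger gene of tracheal and chitin development, dipped and came back, with means of 49.3 ± 5.55 at 0 nM, 5.11 ± 2.1 at 20 nM, 3.39 ± 0.58 at 200 nM and 16.9 ± 2.45 at 2000 nM. A count of 3 reads was worth 5.06, 1.70 and 2.03 in the 20 nM libraries and 4.71, 4.48 and 3.04 in the 200 nM libraries. The means of ich at these 2 doses thus rested on few reads. The difference of ich between 2000 and 200 nM was 2.02 ± 0.35 log2 (adjusted p = 0.037), and neither this gene nor any other was called against 200 nM without 2000 nM replicate 1 or 200 nM replicate 3.

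**Figure D5:**
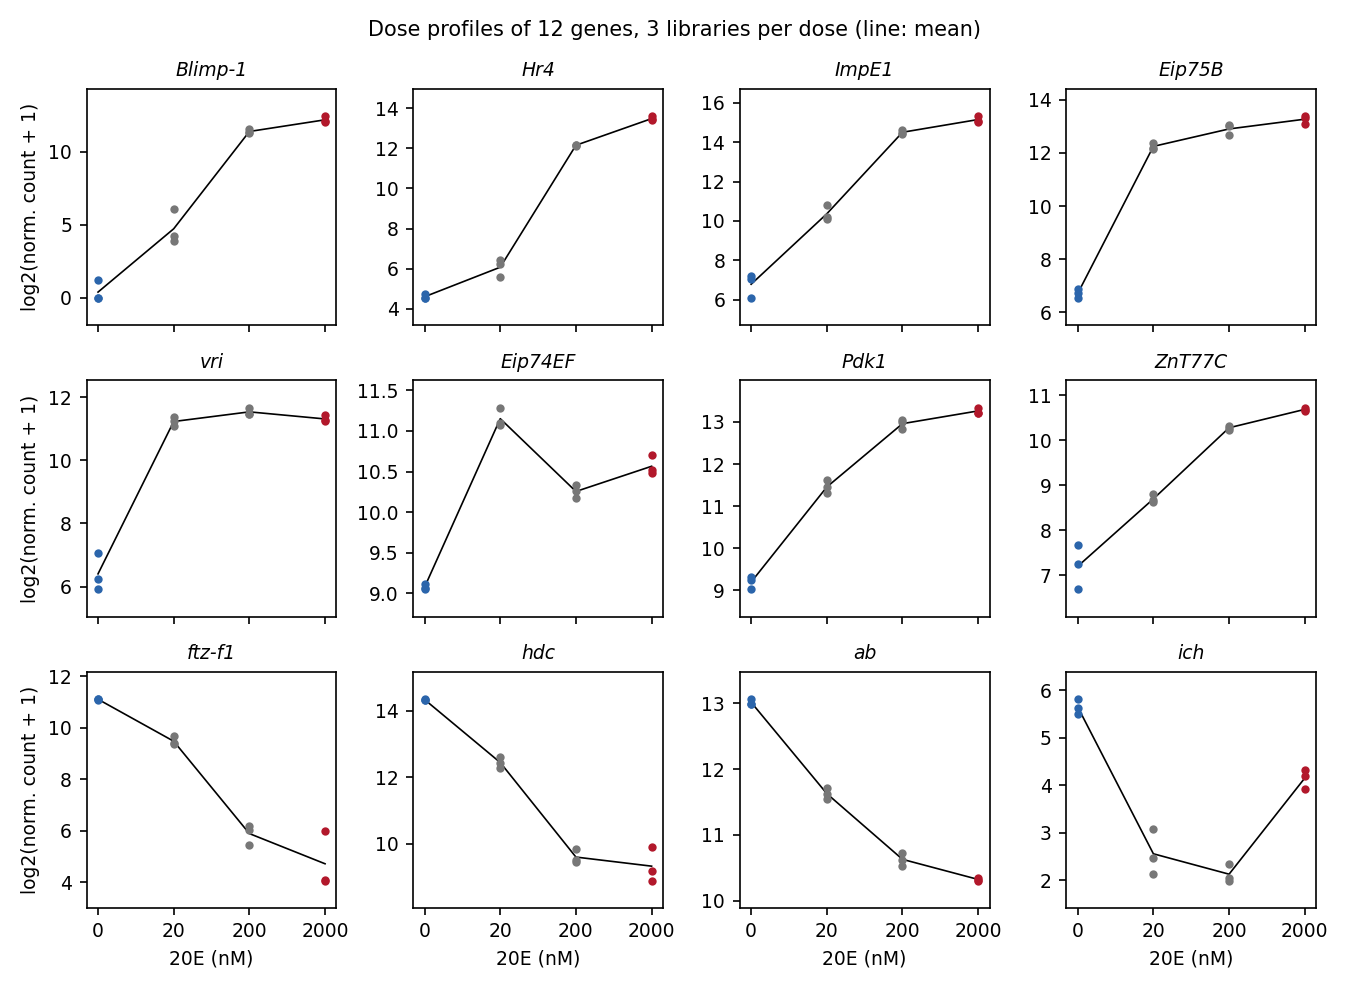
Normalised counts plus 1 (log axis) of 12 genes in every library at 0, 20, 200 and 2000 nM, with lines through the dose means. The mean of vri at 20 nM is near that at 2000 nM, those of Hr4 and Blimp-1 are highest at 2000 nM, and that of Eip74EF is highest at 20 nM. The gene ich is low at 20 and 200 nM, where it had few reads.

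Markers of the wing disc were present in all 6 libraries, summing to 51498 to 56167 normalised counts at 2000 nM and 38760 to 42703 at 0 nM, and 8 of 11 rose. Blood cell markers summed to 26284 to 35099 at 2000 nM and 2999 to 4370 at 0 nM. Ppn made up most of these sums, and the sums without it are given beside that gene (of the other markers 1 fell without 0 nM replicate 3). Fat body markers summed to 186 to 299 at 2000 nM and to 52.2 to 2523 at 0 nM, most of it from the Lsp1 storage proteins in 2 of the 0 nM libraries, and Fbp1 alone was called (2 markers fell without 0 nM replicate 2). Adult muscle precursor markers summed to 9308 to 11723 at 2000 nM and 6604 to 7228 at 0 nM, with 3 rises and 3 falls of 9, and without how at 4878, 3876 and 4545 at 2000 nM, against 5066, 4503 and 5058 at 0 nM. Tracheal markers summed to 15994 to 16395 at 2000 nM and 19898 to 22328 at 0 nM, with 2 rises and 2 falls of 6. The largest part of these sums was verm, which fell, while trh rose. Salivary gland markers summed to 15.8 to 37.5 at 2000 nM and 10.7 to 20.9 at 0 nM, and Sgs3 and Sgs7 were at 0 in the 0 nM libraries. Markers of neurons and glia summed to 651 to 813 at 2000 nM and 357 to 477 at 0 nM, with elav the single rise of 2 tested. Markers of other discs and segments summed to 754 to 802 at 2000 nM and 725.3 to 733 at 0 nM, where eya rose and so fell. Larval muscle markers summed to 732 to 817 at 2000 nM and 589 to 696 at 0 nM, where Mlc2 rose and Act87E fell. Prothoracic gland markers summed to 1988 to 2183 at 2000 nM and 1743 to 1951 at 0 nM, and phm was the single call. Npc1a, which was not called, made up most of these sums. The part of other cell types in the changes above was not tested.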

How the data were processed

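The labels' protocols give RNeasy extraction and NEBNext Ultra II Directional poly(A) libraries. The submitters' processing notes name DESeq2 1.32.0, Subread 2.0.1, HISAT2 2.1.0 and SAMtools 1.13. The build, annotation, strand setting and handling of multi-mapping reads were not given in the sources used here.

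The values are normalised counts, read here as a signal: per the file headers, the authors normalised the reads of each gene, and 1 factor for each library turns its values back into whole reads within 0.001. The deposited results table gives the authors' log2 fold change, its standard error and test statistic (a score) and their p-value with its adjusted value. Of these, only the adjusted p-values were used.

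For all 12 libraries log2(value + 1) was modelled in limma 3.58.1 (R 4.3.3), with 1 mean per dose, an intensity trend and 8 residual degrees of freedom, after a check on simulated data. Contrasts were tested two-sided at an adjusted p of 0.05 over 8190 entries. Levels are means ± SD, and differences are ± SE. Gene symbols follow the deposited table. An annotation of BDGP6.54 (Ensembl release 115) gave current names (12167 of 12216 identifiers found), gene order and overlaps. Reads of genes that overlap or have near-identical copies may be shared.

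The members and gene lists were chosen with earlier results of these data known. Named genes were the largest changes with at least 50 counts and no overlap between doses, all nuclear receptors and early factors, the members of smallest adjusted p per list, the largest changes in mean count, genes with at most 3 reads at one dose, and cell type markers. Other list members were named for their role after their values were seen.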

Additional observations from a re-analysis of the deposited data

How the results depend on the processing

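The counts at 2000 nM against 0 nM kept within 1.5 times their value under every alternative run: 0.1 or 10 added before log2 (2590 and 2632 calls), a filter of 50 (2421) or none (2534), TMM scaling (2575), no intensity trend (2393), the 6 libraries alone (2185), limma-voom (2906) and each library left out (951 to 1270 higher, 986 to 1295 lower). Upper-quartile scaling gave 1156 higher and 1468 lower, and moved the median of all entries to -0.03 log2. A count-model test was planned but not run, and limma-voom on the recovered reads stands in its place. Of 435 tested named genes 370 kept their verdict under every alternative in which they were tested (385 of the 435 with a filter of 50), 58 lost and 6 gained a call under some, and PPO2 reversed (0.34 log2 with all libraries, -2.11 without 0 nM replicate 3 with adjusted p = 0.0367, and up to 1.82 with another library left out). The cause was not tested.

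Against 200 nM the counts were not stable. With each library left out they were 0 to 9 in all, 0 to 7 higher and 0 to 4 lower. Without the intensity trend 1 gene was higher and 0 lower, 1 in all (473 higher and 434 lower by limma at an unadjusted p under 0.05 with the trend). Limma-voom gave 22 higher, and the 6 libraries alone 1 lower. The summed level of markers of other discs at 0 nM was 734 with upper-quartile scaling.

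Replicate numbers are shared between the doses, and the libraries' deviations from their dose means correlated at -0.41 to 0.40 between libraries of the same number. Libraries of different numbers were not compared in this way, so these values cannot show whether the numbers are pairs. The main fit did not take the numbers as pairs. A fit with the replicate number as a block gave 1507 higher and 1564 lower against 0 nM, and 37 higher and 14 lower (51 in all) against 200 nM, with 14 rises among the proteasome genes and 11 among the Rab GTPases at 2000 against 0 nM. With 3 libraries a dose, small changes in genes with few counts could not be resolved.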
